A study of Mus musculus with 12 samples.

Results

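The OAS family comprises the 2′-5′-oligoadenylate synthetases and their OAS-like relatives. Here it was taken as the rows of both expression tables whose symbol is Oas1a, Oas1b, Oas1c, Oas1g, Oas2, Oas3, Oasl1 or Oasl2, which gave 8 of the 52636 genes listed. The choice was made with the levels of these genes in the same libraries known, both at baseline and after Klf4 silencing, so their values are given as a description and carry no p-values. Where a member is said to be past a threshold, this too is a description. Other genes of the same pathway were taken from lists and were tested.

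Synthetases of this family bind double-stranded RNA and then join ATP into short chains with 2′-5′ linkages, called 2-5A. The 2-5A is a short-lived messenger of the antiviral response and is broken down by phosphodiesterases. The family belongs to the interferon-stimulated genes (ISGs), which type I interferon raises through the receptor Ifnar1/Ifnar2, the kinases Jak1 and Tyk2 and a transcription factor complex that holds Stat2 and Irf9.

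Bulk RNA-seq was run on 12 libraries, 3 in each of 4 groups. Cultured mouse cells received either a small interfering RNA against Klf4 (siKlf4), a zinc-finger transcription factor, or a scrambled control (Scr). Both were given by lipid-based transfection, and none of the 4 groups was left untransfected. A siKlf4 effect here means the difference between siKlf4 and Scr libraries. The part of Klf4 loss in it was not tested. The PDGFR-β+ cells are mesenchymal lung cells. Their labels give wild-type C57BL/6 mice aged 12 weeks, whereas the methods describe fluorescent (Zs+) cells sorted from lungs of Pdgfrb-CreERT2, ROSA26R(Zs/+) mice induced with tamoxifen, so the recombined cells are those in which the Pdgfrb promoter drove Cre. The smooth muscle cells (SMCs) are commercial C57 cells that the sample titles place in the lung airway and the labels in the trachea. The methods speak of 3 independent RNA-seq experiments, and nothing in the labels says which animals or cultures stand behind each library, so the p-values measure the spread between these libraries.

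Levels are in TPM, a measure of transcript abundance scaled per transcript length and per library. It keeps no sequencing depth, so precision rests on the 3 libraries of a group. Each library listed between 20590 and 21780 genes above 0. Klf4 itself was at 134 to 146 TPM in the PDGFR-β+ Scr libraries and at 12.3 to 13.8 after siKlf4, and at 89.6 to 96.3 and 16.3 to 26.5 in SMCs. One Scr and one siKlf4 column of the SMC table carry no replicate number, and these libraries differed from their group more than the numbered libraries differed from each other, with a median absolute difference of 0.186 and 0.197 on the log2(TPM + 1) scale in the Scr group against 0.107 between the numbered libraries, and of 0.154 and 0.158 against 0.102 in the siKlf4 group. Smooth muscle markers (Acta2, Tagln, Myh11, Cnn1, Des, Lmod1) were detected in all groups, and their summed level was higher in the PDGFR-β+ Scr libraries (5495 to 6338 TPM) than in the SMC Scr libraries (1435 to 2219 TPM). Most of this sum is Acta2 and Tagln, and Des went the other way, at 2.39 to 2.99 TPM in the SMC and 1.56 to 2.37 TPM in the PDGFR-β+ Scr libraries. Pdgfrb was detected in both, at 423 to 474 TPM in PDGFR-β+ and 213 to 216 TPM in SMC Scr libraries. Of the other mesenchyme and fibroblast markers, Col1a1 and Cspg4 also had the higher Scr mean in PDGFR-β+ cells. The Scr mean was higher in SMCs for Pdgfra (417 against 169 TPM), Dcn (409 against 71.2 TPM) and Col1a2 (1749 against 1482 TPM).

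The members sit in 2 groups on chromosome 5 (GENCODE release M21, genome build GRCm38). Oasl2 (ENSMUSG00000029561.17, chr5:114896936-114912234, forward strand) and Oasl1 (ENSMUSG00000041827.15, chr5:114923240-114937915, forward) lie side by side. The other members lie in a run that begins with Oas2 (ENSMUSG00000032690.16, chr5:120730333-120749853, reverse), Oas3 (ENSMUSG00000032661.9, chr5:120753098-120777661, reverse) and Oas1c (ENSMUSG00000001166.17, chr5:120800194-120812514, reverse). It goes on with Oas1b (ENSMUSG00000029605.16, chr5:120812635-120824163, forward), Oas1g (ENSMUSG00000066861.14, chr5:120876142-120887613, reverse) and Oas1a (ENSMUSG00000052776.10, chr5:120896256-120907521, reverse). Oas1b and Oas1c are transcribed away from each other from starts 121 bp apart. Oas1d, Oas1e, Oas1f and Oas1h lie in the same run.

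RefSeq promoter sequences (build GRCm38.p6) were at hand for 6 of the 8 members. They run from 250 bases before to 50 bases after the start. They were searched on both strands for the interferon-stimulated response element (ISRE), here GAAA followed after any 2 bases by GAAA again, the letters bound by that complex and by other interferon regulatory factors. These letters occur in 3.44% of the 32851 promoters in the RefSeq table. They were present in Oas1a, Oas1g, Oas3 and Oas1c, and were not in the windows of Oasl1 and Oasl2. The stretches just before the start of Oas1a, Oas1g, Oas1c and Oas3 are printed because they hold these letters, with the matched letters in capitals, 5′ to 3′ on the strand of the gene, ending at the base before the RefSeq start:
Oas1a (chr5:120907526-120907625, reverse): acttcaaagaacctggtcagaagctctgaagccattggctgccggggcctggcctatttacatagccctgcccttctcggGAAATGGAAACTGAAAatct
Oas1g (chr5:120887614-120887713, reverse): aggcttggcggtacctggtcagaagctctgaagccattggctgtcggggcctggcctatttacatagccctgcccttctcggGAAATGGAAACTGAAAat
Oas1c (chr5:120812515-120812634, reverse): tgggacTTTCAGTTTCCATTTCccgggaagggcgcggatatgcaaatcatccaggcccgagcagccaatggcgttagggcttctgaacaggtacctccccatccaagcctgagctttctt
Oas3 (chr5:120777660-120777759, reverse): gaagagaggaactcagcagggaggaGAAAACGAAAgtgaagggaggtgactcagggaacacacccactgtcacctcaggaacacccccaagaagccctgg

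Oas1a and Oas1g carry the same run of 16 letters, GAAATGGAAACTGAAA, in which a pair of ISRE matches overlap. Oas1c carries the same 16 letters on the other strand at the far end of its stretch. That stretch is the 120 bases between Oas1c and Oas1b, so the run reads toward Oas1b in the orientation of Oas1a and Oas1g and ends 7 bases before the Oas1b start. Of the 32851 promoters, 7 hold this run, under 5 symbols. The other symbols are Apol9a and Apol9b. The GAS letters TTCNNNGAA, in 8.30% of all promoters, were found in Oas1a alone among the 6, and GGGNGTGG, a form of the KLF-binding CACCC box found in 17.6% of all promoters, was in none of the 6 windows. A match of letters is a description and not evidence of binding.

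For contrast, the stretches before the Oasl1 and Oasl2 starts, in which no match was found, read:
Oasl1 (chr5:114923140-114923239, forward): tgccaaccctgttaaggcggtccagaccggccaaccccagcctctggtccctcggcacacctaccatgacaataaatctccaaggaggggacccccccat
Oasl2 (chr5:114896834-114896933, forward): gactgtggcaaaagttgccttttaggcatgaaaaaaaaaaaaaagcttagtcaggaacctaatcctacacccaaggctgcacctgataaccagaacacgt

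In PDGFR-β+ cells the lowest siKlf4 value exceeded the highest Scr value for all 8 members, and in SMCs for 7 of the 8. The summed level of the family was 13.0 to 25.4 TPM in the PDGFR-β+ Scr libraries and 347 to 488 TPM after siKlf4. In SMCs the sum was 50.9 to 91.5 TPM in Scr and 175 to 195 TPM in siKlf4 libraries. The SMCs thus had the higher Scr sum and the lower siKlf4 sum of the pair of cultures. The 2 tables were made separately, so levels in the 2 kinds of cells are set side by side without a test. In bulk RNA, fewer cells with a transcript and less of it per cell cannot be told apart.

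**Figure D1:**
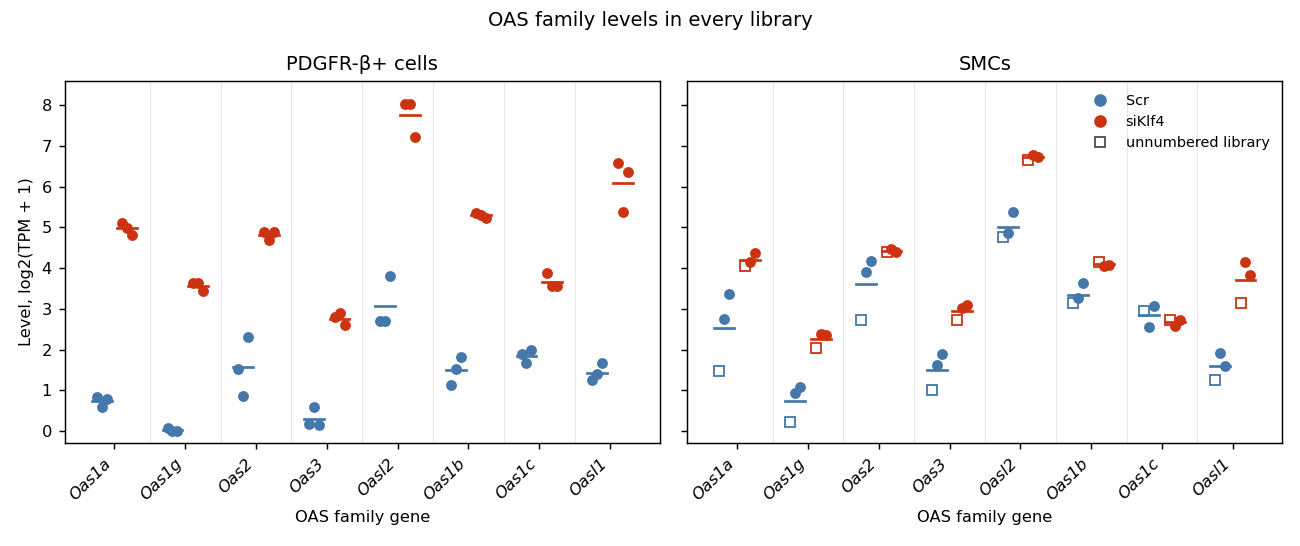
Level of each OAS family gene in each library, as log2(TPM + 1), in PDGFR-β+ cells (left) and SMCs (right), with 1 point per library and a line at the mean of 3 (open squares, the SMC libraries without a replicate number). The siKlf4 points stand above the Scr points for every gene on the left, and for every gene but Oas1c on the right.

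In the fit across all genes (limma on log2(TPM + 1), adjusted p under 0.05), 8 of 8 members were past the threshold and higher in PDGFR-β+ cells, where 25.3% of the 13694 genes tested were, and their median log2 difference was 3.68 against 0.097 over all genes. In SMCs 6 of 8 were past it and higher, where 15.6% of the 13709 genes tested were, with a median of 1.48 against 0.017. In either direction, 40.6% of all genes tested in PDGFR-β+ cells and 28.5% in SMCs were past it. Among all genes tested, siKlf4 libraries stood wholly above Scr libraries for 33.9% in PDGFR-β+ cells and 25.6% in SMCs, and wholly below them for 19.8% and 21.5%. Nothing is read from these counts, because the members were chosen on the same contrasts. Scaling the libraries by median ratios changed the split over all genes in PDGFR-β+ cells from 3461 higher and 2098 lower to 2639 higher and 2977 lower, and left 8 of 8 members past the threshold and higher. All 8 members passed the filter of a mean of 1 TPM in both kinds of cells, but Oas1a, Oas1g and Oas3 passed it in PDGFR-β+ cells through their siKlf4 libraries, as Oas1g did in SMCs, since their Scr means were below 1 TPM.

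Oas1a encodes a catalytically active synthetase. In PDGFR-β+ cells its level was 0.780, 0.507 and 0.709 TPM in Scr libraries 1, 2 and 3, and 33.8, 30.9 and 27.1 TPM in siKlf4 libraries 1, 2 and 3. The Scr libraries were all below 1 TPM and the siKlf4 libraries all above 27 TPM, a difference of 4.24 ± 0.13 (SE) on the log2(TPM + 1) scale. In SMCs Oas1a was at 1.79 TPM in the unnumbered Scr library, 5.71 in Scr 2 and 9.28 in Scr 3, against 15.7 TPM in the unnumbered siKlf4 library, 16.7 in siKlf4 2 and 19.6 in siKlf4 3. The SMC groups did not overlap, but the Scr libraries spread more widely than the siKlf4 libraries, and the difference was 1.66 ± 0.43. Oas1a was no longer past the threshold in SMCs when Scr 2, or any single one of the 3 siKlf4 libraries, was left out, with the difference at 1.57 to 1.77.

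Oas1g, beside Oas1a on the chromosome, also encodes an active synthetase. It was at 0.0466 TPM in PDGFR-β+ Scr 1 and listed at 0 in Scr 2 and 3, and stood at 11.4, 11.4 and 9.86 TPM in siKlf4 1, 2 and 3. A ratio against such a low group is not given, and the log2 difference of 3.55 ± 0.13 depends on the pseudocount, being 6.60 with 0.1 in place of 1. The SMC values were 0.160, 0.913 and 1.11 TPM in the unnumbered Scr library, Scr 2 and Scr 3, and 3.13, 4.25 and 4.08 TPM in the siKlf4 libraries in the same order, again without overlap (log2 difference 1.52 ± 0.25). The values of Oas1a and Oas1g are not fully separate measurements. Of the 1786 stretches of 100 bases in the annotated Oas1a transcript, 730 also occur in Oas1g, which is 40.9% of Oas1a and 31.2% of Oas1g, and how the authors' counting assigned such reads is not stated. The other members shared no stretch of 100 bases with a family transcript.

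Oas2 and Oas3 encode larger synthetases built from repeated OAS units. In PDGFR-β+ cells Oas2 was at 1.88, 0.815 and 3.99 TPM in Scr 1, 2 and 3 and at 28.6, 25.0 and 28.6 TPM in siKlf4 1, 2 and 3, a 12.3-fold ratio of means. In SMCs it was at 5.66 TPM in the unnumbered Scr library, 14.0 in Scr 2 and 17.1 in Scr 3, and at 20.0, 21.02 and 19.9 TPM in the unnumbered siKlf4 library, siKlf4 2 and siKlf4 3. The groups did not overlap, yet Scr 3 lay near the lowest siKlf4 library, and Oas2 was one of the members not past the threshold in SMCs (log2 difference 0.81 ± 0.34). The difference was 0.37, and past the threshold, without the unnumbered Scr library, which held the lowest value.

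Oas3 had the lowest siKlf4 level of the family in PDGFR-β+ cells. There it was at 0.115, 0.506 and 0.114 TPM in Scr 1, 2 and 3 and at 5.91, 6.44 and 5.06 TPM in siKlf4 1, 2 and 3, a difference of 2.46 ± 0.18 on the log2(TPM + 1) scale. The SMC libraries gave 0.993, 2.06 and 2.67 TPM in the unnumbered Scr library, Scr 2 and Scr 3 and 5.60, 7.09 and 7.51 TPM in the siKlf4 libraries in the same order. The lowest siKlf4 library held about 3 TPM more than the highest Scr library, and the log2 difference was 1.45 ± 0.24. The siKlf4 levels in the 2 kinds of cells overlapped, whereas the Scr levels did not.

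Oasl2, an OAS-like protein with both synthetase activity and ubiquitin-like domains, was the most abundant member in each of the 4 groups. In PDGFR-β+ cells it was at 5.47, 5.56 and 12.9 TPM in Scr 1, 2 and 3, and at 260.7, 259.6 and 149 TPM in siKlf4 1, 2 and 3. The ratio of means was 27.9-fold, although siKlf4 3 held far less than the other two. SMCs held 26.4, 28.1 and 40.4 TPM in the unnumbered Scr library, Scr 2 and Scr 3 and 100.4, 109 and 106 TPM in the siKlf4 libraries, a 3.32-fold ratio of means with a log2 difference of 1.72 ± 0.15.

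**Figure D2:**
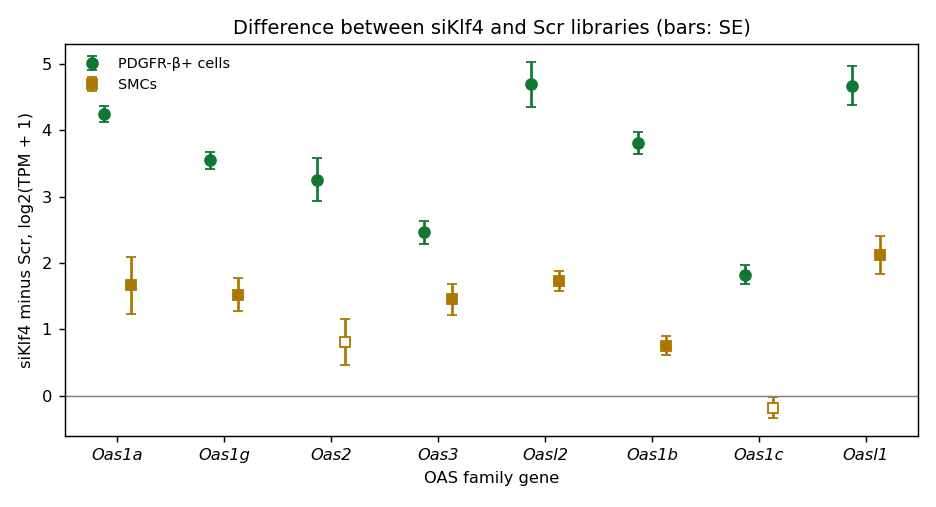
Mean siKlf4 level minus mean Scr level of each OAS family gene on the log2(TPM + 1) scale, with its standard error, in PDGFR-β+ cells (circles) and SMCs (squares), filled where the adjusted p was under 0.05. Differences ran from 1.82 for Oas1c to 4.69 for Oasl2 in PDGFR-β+ cells and from -0.18 for Oas1c to 2.12 for Oasl1 in SMCs, where Oas1c and Oas2 are open. The family was chosen with these contrasts known, so the fill is a description.

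Oas1b is the flavivirus resistance gene of mice, and the C57BL/6 allele carries a premature stop, so the annotation classes it as a polymorphic pseudogene. Its RNA was nonetheless listed in every library. In PDGFR-β+ cells it was at 1.20, 1.87 and 2.52 TPM in Scr 1, 2 and 3 and at 39.7, 38.8 and 36.4 TPM in siKlf4 1, 2 and 3, the third-highest member after siKlf4. In SMCs it was at 7.78, 8.54 and 11.5 TPM in the unnumbered Scr library, Scr 2 and Scr 3 and at 16.9, 15.5 and 15.9 TPM in the siKlf4 libraries. The siKlf4 libraries agreed closely in both kinds of cells, with a log2 difference of 3.80 ± 0.17 in PDGFR-β+ cells and 0.75 ± 0.14 in SMCs.

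Oas1c, which starts 121 bp from Oas1b in the opposite direction, moved least of the 8 members in both kinds of cells. In PDGFR-β+ cells it was at 2.67, 2.16 and 2.98 TPM in Scr 1, 2 and 3 and at 13.6, 10.8 and 10.8 TPM in siKlf4 1, 2 and 3, a 4.51-fold ratio of means. In SMCs it was at 6.73, 4.86 and 7.45 TPM in the unnumbered Scr library, Scr 2 and Scr 3 and at 5.64, 4.98 and 5.63 TPM in the siKlf4 libraries. These SMC groups overlapped and the log2 difference was -0.18 ± 0.16. It was the only member with a higher mean in Scr than in siKlf4 libraries, in SMCs.

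The ratio of Oas1b to Oas1c TPM describes the divergent pair within each library. In PDGFR-β+ cells it was 0.450, 0.864 and 0.844 in Scr 1, 2 and 3, and 2.91, 3.58 and 3.37 in siKlf4 1, 2 and 3. In SMCs it was 1.16, 1.76 and 1.54 in the Scr libraries and 2.99, 3.11 and 2.83 in the siKlf4 libraries, the unnumbered one first. The ratio was thus higher in every siKlf4 library than in any Scr library, and the siKlf4 ratios of the 2 kinds of cells overlapped. Gm43069, annotated on the strand opposite Oas1c, was listed at 0 in all 12 libraries.

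Oasl1 lacks synthetase activity and is known to restrain translation of the transcription factor Irf7. In PDGFR-β+ cells it was at 1.38, 1.61 and 2.16 TPM in Scr 1, 2 and 3, and at 94.7, 40.7 and 80.7 TPM in siKlf4 1, 2 and 3. The siKlf4 libraries spread more than 2-fold, with siKlf4 2 the lowest, and the ratio of means was 41.9-fold. Its SMC values were 1.40, 2.78 and 2.02 TPM in the unnumbered Scr library, Scr 2 and Scr 3 and 7.89, 16.8 and 13.2 TPM in the siKlf4 libraries. Oasl1 had the largest log2 difference of the members in SMCs (2.12 ± 0.28) and nearly the largest in PDGFR-β+ cells (4.67 ± 0.29, next to 4.69 ± 0.34 for Oasl2). Irf7 itself, the activator of type I interferon genes, rose from 6.31 ± 2.32 to 249 ± 38.7 TPM in PDGFR-β+ cells (SD, n = 3; log2 difference 5.13, adjusted p = 8.46e-06).

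Ranked among all genes tested from the largest rise on the log2(TPM + 1) scale, the members in PDGFR-β+ cells ran from place 14 (Oasl2) and 15 (Oasl1) through 23 (Oas1a), 32 (Oas1b), 43 (Oas1g), 54 (Oas2) and 85 (Oas3) to 164 (Oas1c). This order depends on the pseudocount. With 0.1 in place of 1, the differences there were 6.60 for Oas1g, 5.34 for Oas1a and 5.24 for Oasl1. Oasl2 reached at most 5.06 under any alternative. In SMCs Oasl1 was at place 20, Oasl2 at 41, Oas1a at 48, Oas1g at 63 and Oas3 at 73. Oas2 followed at 453, Oas1b at 541 and Oas1c at 9601. Oas1b and Oas2 therefore ranked far lower in SMCs than Oas1a, Oas1g, Oas3, Oasl1 and Oasl2, although they stood among the most abundant members in the SMC Scr libraries.

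Oasl2 headed the order of levels in each group. In PDGFR-β+ Scr libraries it was separate from Oas1c, Oas2, Oas1b and Oasl1, neighbouring pairs of which overlapped between 0.815 and 3.99 TPM, and then came Oas1a, Oas3 and Oas1g, each apart from the next. After siKlf4 the order was Oasl2, Oasl1, Oas1b, Oas1a, Oas2, Oas1c, Oas1g and Oas3, where Oas1a overlapped Oas2 and Oas1c overlapped Oas1g. In SMC Scr libraries the order was Oasl2, Oas2, Oas1b, Oas1c, Oas1a, Oasl1, Oas3 and Oas1g. Oasl2 was apart from Oas2 there, as Oas1b was from Oas1c, and the other neighbours overlapped. After siKlf4 in SMCs it was Oasl2, Oas2, Oas1a, Oas1b, Oasl1, Oas3, Oas1c and Oas1g, with overlap of Oas1a with Oas1b, Oas1b with Oasl1, and Oas3 with Oas1c.

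Oasl2 made up 40.4% to 50.9% of the family's summed TPM in PDGFR-β+ Scr libraries and 42.8% to 61.3% after siKlf4, and 42.0% to 51.9% and 55.2% to 57.3% in SMCs. The share of Oas1c fell from a mean of 16.03% ± 4.03 to 2.82% ± 0.28 in PDGFR-β+ cells and from 9.54% ± 3.21 to 2.90% ± 0.34 in SMCs (SD, n = 3). The share of Oas1g went from 0.11% ± 0.20 to 2.63% ± 0.26 and from 0.96% ± 0.57 to 2.03% ± 0.21. The ranges of Oas1c and of Oas1g did not overlap between Scr and siKlf4 in either kind of cell. These shares describe TPM and are not shares of protein or of synthetase activity.

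**Figure D3:**
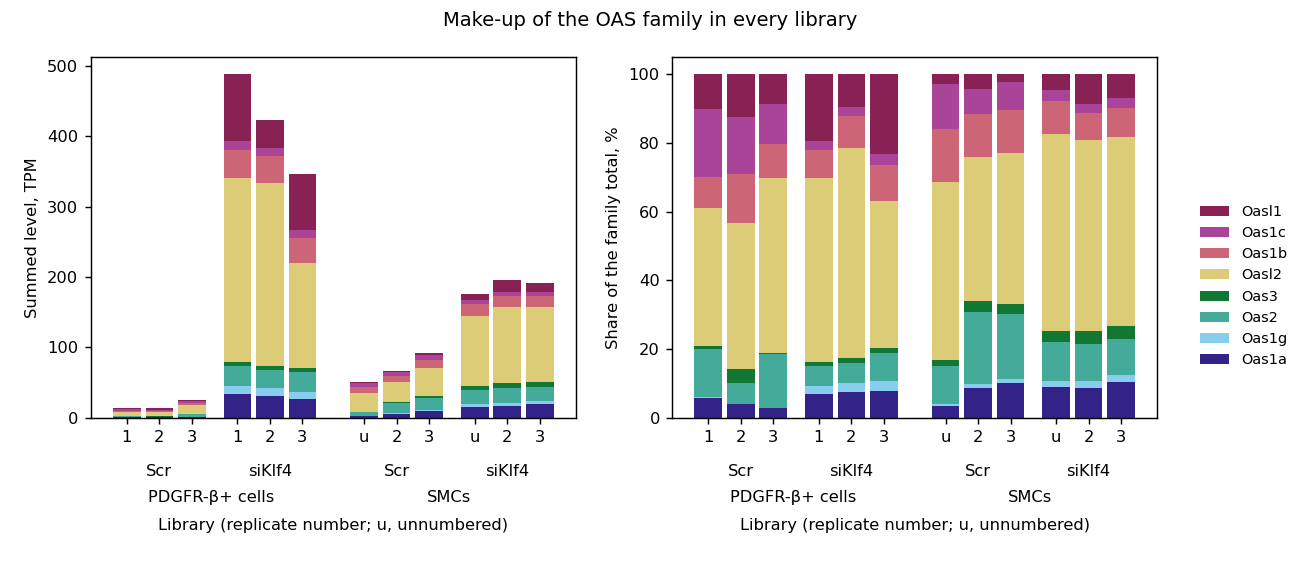
Summed TPM of the 8 OAS family genes in each library (left) and the share of each gene in that sum in percent (right), one bar per library. The sum was 347 to 488 TPM in PDGFR-β+ siKlf4 libraries against 13.0 to 25.4 TPM in their Scr libraries, and Oasl2 was the largest part of every bar.

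The members did not move wholly together among replicates. In SMCs the unnumbered Scr library held the lowest Scr value for 7 of 8 members and Scr 3 the highest for 7. In PDGFR-β+ cells siKlf4 1 held the highest siKlf4 value for 6 members and siKlf4 3 the lowest for 6. Over the 4 numbered SMC libraries alone the log2 differences were 1.20 for Oas1a, 1.36 for Oas1g, 0.38 for Oas2, 1.31 for Oas3, 1.64 for Oasl2, 0.62 for Oas1b, -0.16 for Oas1c and 2.23 for Oasl1. The values of Oas1a and Oas2 were the ones that rested most on the unnumbered libraries. The other family symbols stayed near the bottom of the scale, with Oas1f and Oas1h listed at 0 in all 12 libraries and Oas1d and Oas1e with group means of at most 0.0199 TPM.

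The closest likeness to the family was sought across 13024 genes, by the root mean square difference of log2(TPM + 1), centred within each kind of cell, from the mean profile of the members over the 12 libraries. The 5 nearest genes were Ddx60 (0.173), Irgm1 (0.178), Agrn (0.1805), Parp14 (0.199) and Trim30a (0.199). Only 2 of these 5 were still among the nearest with a pseudocount of 0.1. Agrn, which encodes the matrix protein agrin, was at 11.5 ± 0.64 and 184 ± 26.4 TPM in PDGFR-β+ Scr and siKlf4 libraries and at 40.7 ± 7.88 and 109.6 ± 6.49 TPM in SMCs (SD, n = 3). Among the members, Oas1g lay closest to the family mean (0.157) and Oas1c farthest from it (0.822). The nearest gene outside the family was H2-Q4 for Oas1a, Agrn for Oas1g, Xaf1 for Oas2, H2-D1 for Oas3, Rsad2 for Oasl2, Sp110 for Oas1b, Gpr85 for Oas1c and Cxcl10 for Oasl1. The points share libraries, so these distances are a description.

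The listed genes that break down 2-5A, together with Abce1, did not all rise with the family. Abce1, an ATP-binding ribosome recycling factor, changed in opposite directions in the 2 kinds of cells. It fell in PDGFR-β+ cells from 159, 153 and 152 TPM in Scr 1, 2 and 3 to 79.9, 87.4 and 79.7 TPM in siKlf4 1, 2 and 3 (log2 difference -0.91 ± 0.07, adjusted p = 7.8e-05). In SMCs it rose from 113, 104 and 104 TPM in the unnumbered Scr library, Scr 2 and Scr 3 to 160.4, 139.9 and 136 TPM in the siKlf4 libraries (0.44 ± 0.08, adjusted p = 0.00952). The effects differed by 1.34 ± 0.10 between SMCs and PDGFR-β+ cells in the interaction test (adjusted p = 7.32e-06). Pde12, a phosphodiesterase that degrades 2-5A, rose in SMCs from 7.44 ± 0.35 to 11.4 ± 0.59 TPM (adjusted p = 0.0067), and its values in PDGFR-β+ cells were 9.95 ± 0.79 and 12.0 ± 0.695 TPM (adjusted p = 0.0844). Akap7, whose mouse protein also cleaves 2-5A, was not past the threshold in either (adjusted p = 0.0933 in SMCs and 0.792 in PDGFR-β+ cells). Of these 3 genes, 2 rose and none fell in SMCs, where 15.6% of all genes tested were higher and 12.9% lower. In PDGFR-β+ cells, where 25.3% of all genes tested were higher and 15.3% lower, none rose and 1 fell.

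Of the listed genes of double-stranded RNA sensing, which hold sensors, an adaptor and Adar, 7 of 8 rose and 1 fell in PDGFR-β+ cells, where 25.3% of all genes tested rose, with a median log2 difference of 1.93. In SMCs 6 of 8 rose, against 15.6% of all genes, with a median of 0.71. These and the other pathway lists were chosen with the changes of their genes known, so their counts are a description and nothing is read from their distance to the shares over all genes. Ifih1 (the sensor MDA5) rose from 7.62 ± 2.64 to 92.8 ± 4.67 TPM in PDGFR-β+ cells (adjusted p = 3.4e-05) and from 17.2 ± 1.34 to 37.1 ± 2.59 TPM in SMCs (adjusted p = 0.000997). Eif2ak2 (the kinase PKR, which halts translation on binding double-stranded RNA) rose in both, with log2 differences of 1.73 in PDGFR-β+ cells and 0.63 in SMCs (adjusted p = 5.29e-05 and 0.00388). The gene that fell was Mavs, the mitochondrial adaptor of Ifih1 and Ddx58 (-0.30 ± 0.09 in PDGFR-β+ cells, adjusted p = 0.0333). It was not past the threshold when Scr 1, Scr 2, siKlf4 2 or siKlf4 3 was left out, with adjusted p from 0.0821 to 0.1005. Tlr3, the endosomal sensor, was at 16.3 ± 0.96 and 17.0 ± 4.78 TPM in SMCs (adjusted p = 0.913) and rose in PDGFR-β+ cells by 1.41.

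Of the 11 receptor signalling genes described, 6 rose and none fell in PDGFR-β+ cells (25.3% of all genes rose), and 4 rose and none fell in SMCs (15.6%). Stat2 rose from 40.6 ± 6.02 to 209.8 ± 9.56 TPM in PDGFR-β+ cells and from 85.2 ± 6.74 to 132 ± 21.6 TPM in SMCs (adjusted p = 1.06e-05 and 0.0117). Irf9, Irf7 and Usp18, the last an inhibitor of the receptor, also rose in both. Irf7 in SMCs (20.9 ± 11.3 to 72.6 ± 12.5 TPM, adjusted p = 0.0176) was not past the threshold when siKlf4 2 or siKlf4 3 was left out (adjusted p = 0.0535 and 0.0596). The receptor genes Ifnar1 and Ifnar2 and the kinases Jak1 and Tyk2 were not past the threshold in either kind of cell. The median log2 difference over the list was 1.24 in PDGFR-β+ cells and 0.19 in SMCs.

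Interferon genes were mostly listed at 0. Ifnb1, the gene of interferon beta, was listed at 0 in the 3 PDGFR-β+ Scr libraries and stood at 5.19, 3.71 and 3.16 TPM in siKlf4 1, 2 and 3. It passed the filter of 1 TPM only through the siKlf4 libraries, so it could be tested only because it was high there, and no p-value is given. It was listed at 0 in all 6 SMC libraries. Ifna4 was at 0.838 ± 0.287 TPM in PDGFR-β+ siKlf4 libraries and listed at 0 in the other 9, below the filter. Ifnk, Ifnl2, Ifnl3 and Ifng were listed at 0 throughout, and Ifna2 and Ifne had group means of at most 0.0631 TPM.

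Among the other ISGs, 12 of 12 tested rose in PDGFR-β+ cells (25.3% of all genes) and 11 of 11 tested rose in SMCs (15.6%), with medians of 4.10 and 1.54 on the log2 scale against 3.68 and 1.48 for the OAS family. In PDGFR-β+ cells Mx1, Cmpk2 and Ddx60 passed the filter only through their siKlf4 libraries, so their part in this count was fixed by the filter. Isg15, a ubiquitin-like modifier, rose from 20.6 ± 8.36 to 734 ± 5.85 TPM in PDGFR-β+ cells and from 49.0 ± 21.9 to 230.2 ± 14.9 TPM in SMCs (adjusted p = 1.33e-05 and 0.0038). Over all 42 listed genes outside the family, 26 of 35 tested rose and 2 fell in PDGFR-β+ cells, and 23 of 33 rose and none fell in SMCs, where 12.9% of all genes tested were lower. The 26 include Ifnb1, Mx1, Cmpk2 and Ddx60, which passed the filter only through their siKlf4 libraries, so their part was fixed by it. The siKlf4 effect differed between the kinds of cells for 27 of 33 listed genes, against 33% of the 13032 genes tested for this difference. The effect was lower in SMCs for 25 of them, against 18.5% of all genes, and higher for 2, Abce1 and Ifnar1, against 14.5%. Klf4 itself fell less in SMCs (log2 difference -2.16) than in PDGFR-β+ cells (-3.35). That difference was 1.19 ± 0.19 in the interaction test (adjusted p = 0.00069), and its part in the differences of the listed genes was not tested. Cmpk2 and Ddx60, counted among the 25, entered this test only through their PDGFR-β+ siKlf4 libraries. As for the other counts of these lists, nothing is read from the comparison of shares. For the OAS members the differences of the 2 kinds of cells are given side by side above and were not tested against each other, because the members were chosen on both.

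**Figure D4:**
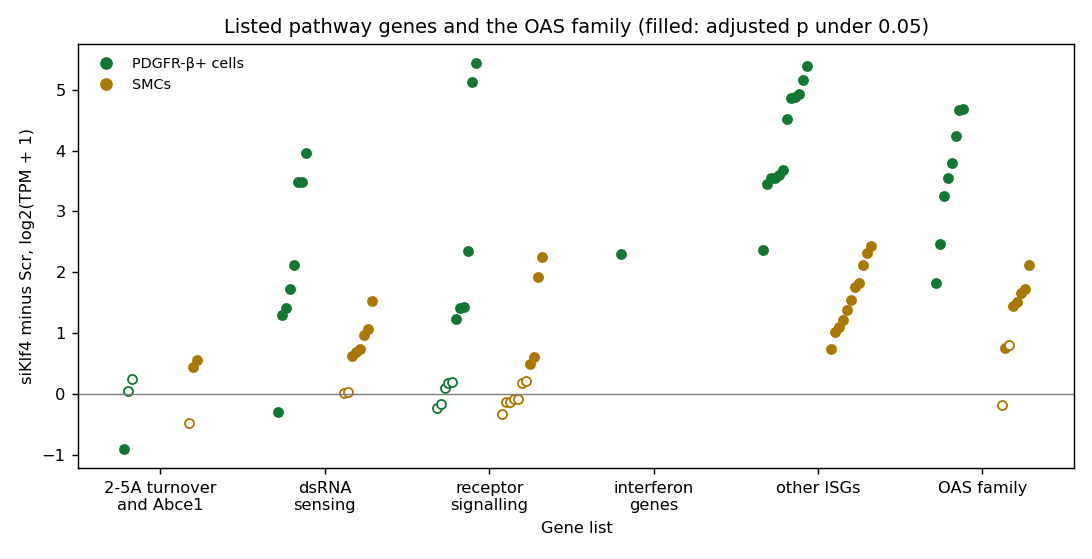
Difference between siKlf4 and Scr on the log2(TPM + 1) scale for each tested gene of 5 pathway lists and of the OAS family, in PDGFR-β+ cells (green) and SMCs (ochre), filled where the adjusted p was under 0.05. All tested ISGs lie above 0 in both, whereas Abce1 and the 2-5A turnover genes lie between -0.91 and 0.55.

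Of 43 annotated genes within 200 kb of a member, 15 were tested in PDGFR-β+ cells, where 3 rose and 1 fell (40.6% of all genes tested were past the threshold in either direction), with a median log2 difference of 0.094 against 0.097 over all genes. Those past it were Acads (0.72 ± 0.10, adjusted p = 0.00113), 1500011B03Rik (0.67 ± 0.09, 0.00115), Sppl3 (0.44 ± 0.08, 0.00437) and Tpcn1 (-0.38 ± 0.08, 0.00801). In SMCs 17 were tested, and Unc119b (0.49 ± 0.09, 0.00814) and Ddx54 (0.25 ± 0.07, 0.0406) rose while Tpcn1 (-0.25 ± 0.08, 0.0448) fell, against 28.5% of all genes in either direction. The SMC count was 1 in place of 3 with no filter, with no trend, in the numbered libraries, and when Scr 2, Scr 3 or any single siKlf4 library was left out, and 2 without the unnumbered Scr library. The nearest tested gene, 2210016L21Rik, lies 4243 bp from Oasl1 and differed by -0.04 ± 0.07 in PDGFR-β+ cells and -0.27 ± 0.08 in SMCs, not past the threshold in either (adjusted p = 0.707 and 0.0515). The differences of all 8 members in PDGFR-β+ cells, and of all but Oas1c in SMCs, were larger than that of any tested neighbour. Nothing is read from this, because the members were chosen on these same contrasts.

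**Figure D5:**
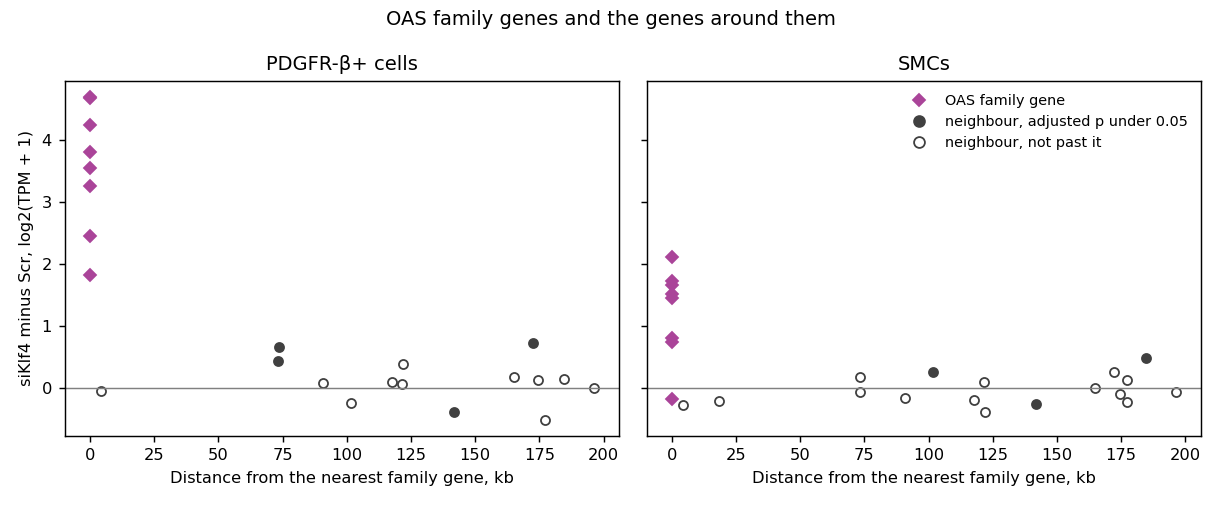
Difference between siKlf4 and Scr on the log2(TPM + 1) scale for the OAS family genes (diamonds, placed at 0) and for the tested genes around them, by distance in kb from the nearest family gene. Neighbours lie between -0.51 and 0.72 in PDGFR-β+ cells and between -0.38 and 0.49 in SMCs, against 1.82 to 4.69 and -0.18 to 2.12 for the family. The family was chosen with these contrasts known, so this is a description.

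Markers of other cell types were compared over the same libraries. The 6 macrophage and leukocyte markers (Ptprc, Cd68, Adgre1, Csf1r, Lyz2, Cd14) summed to 35.4 to 37.0 TPM in PDGFR-β+ Scr and 29.0 to 33.8 TPM in siKlf4 libraries, and to 45.5 to 49.5 and 24.8 to 29.6 TPM in SMCs. The sums were lower after siKlf4, but the members differed. In PDGFR-β+ cells Lyz2 fell from 19.0 ± 1.52 to 11.3 ± 2.11 TPM (adjusted p = 0.00538) and Cd14 rose from 6.88 ± 0.22 to 10.5 ± 0.41 TPM (adjusted p = 0.0027), while Cd68 was at 7.56 ± 1.37 and 8.77 ± 0.75 TPM (adjusted p = 0.29). Csf1r also fell there, from 2.28 ± 0.70 to 0.775 ± 0.29 TPM (adjusted p = 0.0138), and passed the filter through its Scr libraries. In SMCs Cd14 fell from 41.0 ± 1.26 to 22.1 ± 2.73 TPM (adjusted p = 0.00197). Ptprc, which marks all leukocytes, was at most 0.266 TPM in any library, and Adgre1, of macrophages, was listed at 0 in all but PDGFR-β+ Scr 2 (0.105 TPM). The 4 endothelial markers summed to 13.8 to 17.3 TPM in PDGFR-β+ Scr and 12.0 to 13.3 TPM in siKlf4 libraries, and to 1.13 to 3.04 and 3.23 to 3.99 TPM in SMCs. Kdr, which made up most of the sum in PDGFR-β+ cells and in SMC siKlf4 libraries, was at 0.663 ± 0.15 TPM in SMC Scr and 2.88 ± 0.22 TPM in SMC siKlf4 libraries, higher together with the OAS family. It too passed the filter only through the siKlf4 libraries. The 4 epithelial markers summed to at most 0.947 TPM. The smooth muscle sum was 3304 to 4067 TPM in SMC siKlf4 libraries, above Scr, and 4630 to 4930 TPM in PDGFR-β+ siKlf4 libraries, below Scr. Members went against these sums, as Myh11 and Lmod1 rose in PDGFR-β+ cells (log2 differences 0.66 and 0.58, adjusted p = 0.00216 and 0.000559) and Des was lower after siKlf4 in SMCs (-0.36, adjusted p = 0.0884). The mesenchyme and fibroblast markers summed to 3775 to 4480 TPM in PDGFR-β+ Scr and 3083 to 4115 TPM in siKlf4 libraries. In SMCs they summed to 3601 to 4074 TPM in Scr and 3129 to 3445 TPM in siKlf4 libraries. Cspg4 (log2 difference -1.97, adjusted p = 0.000337), Col1a1 (-0.63, 0.00816) and Pdgfrb (-0.41, 0.0218) fell in PDGFR-β+ cells. Col1a2 (-0.36, 0.00685) and Cspg4 (-0.53, 0.0311) fell in SMCs, and the others of this list were not past the threshold. The part of these marker changes in the OAS values was not tested.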

How the data were processed

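The authors trimmed the reads, aligned them with HISAT2 to mm10 with GENCODE annotation, and used ballgown and StringTie to estimate abundance. The deposited values are TPM, with 1 table for SMCs and 1 for PDGFR-β+ cells and 1 column for each library. TPM sums to 1000000 in each library, so genes that rise lower the values of others, and it keeps no depth. The authors' DESeq2 tests used counts, not analysed here. The versions of HISAT2, StringTie and GENCODE are not given in the sources used here. No per-sample column was left unused.

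Values were taken as log2(TPM + 1), kept where their mean across a cell type's 6 libraries reached 1 TPM, and fitted with limma 3.58.1 in R 4.3.3 (eBayes with trend, two-sided, Benjamini-Hochberg over all genes tested, threshold 0.05). Each cell type was fitted alone. The difference between cell types was the interaction term over 12 libraries. The members, gene lists, marker lists and tests were chosen with earlier results of these data known. Genes named were all members, the listed pathway genes, Klf4, the 5 genes most like the family, the nearest to each member, and called neighbours within 200 kb. Irf7 is also set beside Oasl1.

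On simulated data with 200 changed genes, the fit recovered 62 of 66 genes changed by 2 on the log2 scale in the SMC design and 58 of 66 in the PDGFR-β+ design, and 47 and 53 of 67 changed by 1, with 8 of 13509 and 6 of 13494 unchanged genes called. The interaction recovered 62 of 66 changed by 2 and 43 of 67 changed by 1, and called 6 of 12832 unchanged genes. Of 67 genes changed by 0.5, 23 were recovered in the SMC design, 15 in the PDGFR-β+ design and 12 by the interaction. Most changes of that size would thus be missed. Positions came from GENCODE release M21, in which 52403 of the 52636 identifiers were found, and promoters from RefSeq. The library kit marks strand, but whether the authors' counting used it is not stated. No pair of replicates shared more than 0.0876% of identical values over the genes tested. Alternatives were a pseudocount of 0.1, no filter, a filter at 5 TPM, quantile normalization, scaling by median ratios, no trend, joint or separate fits, a replicate block, each library left out, the 4 numbered SMC libraries, and a term for their naming. Single-cell data of the study were not analysed here. Some genes of the pathway are not reported here.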

Additional observations from a re-analysis of the deposited data

Results flagged for a closer look

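For 27 listed pathway genes outside the family, the siKlf4 effect in SMCs differed from that in PDGFR-β+ cells by limma's interaction term over the 12 libraries (adjusted p under 0.05), and each value is the SMC effect minus the PDGFR-β+ effect on the log2(TPM + 1) scale. Klf4, not among the 27, differed by 1.19, having fallen less in SMCs. In the list of 2-5A turnover genes and Abce1, Abce1 differed by 1.34, having fallen in PDGFR-β+ cells and risen in SMCs. Of the listed genes of double-stranded RNA sensing, the difference was -1.10 for Eif2ak2, -2.42 for Ifih1, -1.16 for Ddx58, -2.75 for Dhx58, -1.38 for Tlr3, -2.44 for Zbp1 and -0.61 for Adar.

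Of the signalling genes, it was 0.38 for Ifnar1, -1.74 for Stat2, -0.94 for Irf9, -1.57 for Irf1, -0.32 for Irf3, -3.21 for Irf7, -3.18 for Usp18 and -1.49 for Socs1. The Irf3 value (adjusted p = 0.0414) was not past the threshold when any library but the numbered SMC Scr 2 or PDGFR-β+ siKlf4 1 was left out, with adjusted p between 0.0238 and 0.153 over all alternatives. Of the other ISGs, it was -2.84 for Isg15, -3.10 for Ifit1, -1.43 for Ifit3, -3.42 for Mx2, -3.35 for Rsad2, -2.96 for Ifi44, -1.85 for Bst2, -2.24 for Xaf1, -2.16 for Rtp4, -4.13 for Cmpk2 and -2.65 for Ddx60. Each of these ISGs rose in both kinds of cells, and Cmpk2 showed the largest difference among the listed genes. However, Cmpk2 and Ddx60 passed the filter in PDGFR-β+ cells only through their siKlf4 libraries. They could enter this comparison only because they were high there.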

How the results depend on the processing

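Every member kept its direction under every alternative, and 8 of 8 were called in PDGFR-β+ cells, except 7 of 7 tested at a minimum mean of 5 TPM. In SMCs the count ran from 4 (minimum mean of 5 TPM, 6 members tested) to 7, and from 5 to 7 with one library left out. The members were chosen on these same contrasts, so nothing is read from their counts. Oas1a, Oas1g and Oas3 in PDGFR-β+ cells, and Oas1g in SMCs, also passed the 1 TPM filter only through their siKlf4 libraries. A pseudocount of 0.1 moved 9 member values by more than the replicate spread, all upward. The SMC neighbours called dropped from 3 to 1 with no filter, no trend, the replicate block or the numbered libraries, and were 1 to 2 with one library left out. Leaving out one library gave 2216 to 3563 called genes in SMCs against 3910, fewer samples being part of that setting. The lowest counts were 2539 without Scr 2, 2930 without Scr 3, 2216 without siKlf4 2 and 2342 without siKlf4 3. Median-ratio scaling turned the interaction split over all genes from 1886 higher and 2411 lower in SMCs to 2510 and 1913. Other causes were not tested.

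Deviations of libraries with the same replicate number correlated at 0.0732, -0.0158 and 0.0043 in PDGFR-β+ cells. Those with different numbers ran from -0.0983 to 0.0831. With only 2 numbered pairs in SMCs the deviations mirror each other, so 0.107 is a single value there. These correlations cannot settle whether the libraries were paired. With the replicate block 5641 genes were called in PDGFR-β+ cells and 2853 in SMCs, members called were 8 and 5 (Oas1b, at 0.62, no longer called in SMCs), listed genes 29 and 22, and the differences 3882. TPM keeps no depth, so absence of a low member such as Oas1g in Scr libraries cannot be given a limit.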

Other observations

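The ISRE letters (GAAA, any 2 bases, GAAA) were also counted in the RefSeq promoters of the listed genes. They were present in 6 of the 9 ISG promoters at hand (Bst2, Ddx60, Ifit1, Ifit3, Isg15 and Rsad2), in 3 of 6 promoters of the double-stranded RNA sensing list (Ddx58, Eif2ak2 and Ifih1), in 2 of 10 of the signalling genes (Socs1 and Stat2), in 2 of 8 of the interferon genes (Ifna2 and Ifna4), and in none of the 3 of Abce1 and the 2-5A turnover genes, beside 4 of 6 OAS members and 3.44% of all promoters. The lists were chosen with these genes' changes known, so the counts are a description.

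Of the antisense genes annotated over members, Gm13822, opposite the start of Oasl1, was listed at 0 in all SMC libraries and reached 0.423 TPM in the siKlf4 PDGFR-β+ libraries. Gm43068, opposite Oas2, was listed at 0 in all 12.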
